A study of Mus musculus with 9 samples.

Results

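The genes described here are 10 transcripts of blood clotting at the vessel wall, taken from the deposited count table by symbol. They are 4 procoagulant genes (Vwf, F8, F5 and F3), 3 anticoagulant genes (Thbd, Procr and Tfpi) and 3 protease-activated receptor genes (F2r, F2rl1 and F2rl3). All 10 were found among 52636 rows of the table, and 8 of them had enough counts to be tested with 14583 genes in all. F3 and F2rl1 did not pass that filter and are given by their counts.

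Liver endothelial cells of mice were sequenced as polyadenylated RNA, after sorting for living cells without CD45 that carried CD31 and had bound a VE-cadherin antibody injected in vivo. The 4 control libraries are labelled wild type, and the other 5 are labelled as a double knockout of Erg and Fli1, 2 transcription factors of the ETS family that keep endothelial identity. The labels give tamoxifen, the inducer of deletion, for every sample of both groups, and collection on day 7 after it. Not given in the sources used here are the promoter that drives deletion, the deleted exons and the age of the animals. Nothing in the labels ties each library to its own animal, so p-values measure the spread between these samples, which may be technical in part.

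Clotting is held in check on healthy endothelium by a balance of surface proteins. Tissue factor (F3) starts the cascade when blood meets it, factor V (F5) and factor VIII (F8) are cofactors that speed thrombin formation, and von Willebrand factor (Vwf) tethers platelets and carries factor VIII in plasma. Thrombomodulin (Thbd) binds thrombin and turns it toward activating protein C, the endothelial protein C receptor (Procr) presents protein C to that complex, and tissue factor pathway inhibitor (Tfpi) blocks the start of the cascade. Thrombin also signals to cells by cutting the receptors PAR1 (F2r) and PAR4 (F2rl3), while PAR2 (F2rl1) is cut mainly by other proteases. In the liver, sinusoidal endothelium is known as a main source of factor VIII, and hepatocytes make most other clotting factors.

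Some facts of the whole series touch every result below. Library totals lay between 26791371 and 36401682 counts, so 1 count was worth 0.0260 to 0.0368 CPM (counts scaled to the library size times its TMM factor), the unit used here unless another is named. Erg fell from 311.6 ± 17.8 CPM (SD, n = 4) to 142.9 ± 10.9 CPM (SD, n = 5), but Fli1 rose from 100.1 ± 8.01 to 147.4 ± 22.5 CPM, so the second group is called the libraries labelled knockout and every direction is relative to that label. On the second principal component, which held 18.1% of the variance, replicates 2 and 3 of that group lay at 41.8 and 22.6 and its replicates 1, 4 and 5 between -36.2 and -13.1, with the controls between -9.39 and 16.7. Results that rest on replicates 2 and 3 are therefore also given without them. Replicates 1, 4 and 5 also lay outside the control range, on its other side. The choice of libraries to leave out was made from these same data, so p-values of such fits only describe the libraries kept. The sort's own genes Cdh5 and Pecam1 did not pass the test, with log2 fold changes of -0.02 ± 0.11 and -0.07 ± 0.12 (SE). Of 8 endothelial markers 2 were lower, the receptor kinase genes Tie1 (log2 -1.02) and Tek (log2 -0.60), and 0 higher. By the same test 14.8% of all tested genes were lower. The summed level of the 8 was 15553 to 17260 CPM in controls and 11759 to 17071 CPM in the libraries labelled knockout. Kdr and Eng had 2861 and 3110 CPM in replicate 2 of the latter and 3160 and 3042.5 CPM in replicate 3. In its replicates 1, 4 and 5 Kdr had 4919 to 5338 CPM and Eng 5715 to 5974 CPM. Within this group Cdh5 and Tek were also lowest in replicates 2 and 3, while Pecam1, Tie1 and Egfl7 were highest there. The part of this split in the results was not tested.

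The promoters of 3 members are shown because F2r and F2rl3 moved in opposite directions in all 5 libraries labelled knockout and Procr varied most among them, and because ETS factors bind DNA at the letters GGAA. Each is the RefSeq sequence of build GRCm38.p6 on the gene's own strand, ending at the RefSeq start or before the first GENCODE exon, and capitals mark GGAA or its reverse TTCC. The windows are chr13:95618488-95618716 (minus strand) for F2r, chr8:72761409-72761658 (plus strand) for F2rl3 and chr2:155750967-155751116 (plus strand) for Procr.
F2r: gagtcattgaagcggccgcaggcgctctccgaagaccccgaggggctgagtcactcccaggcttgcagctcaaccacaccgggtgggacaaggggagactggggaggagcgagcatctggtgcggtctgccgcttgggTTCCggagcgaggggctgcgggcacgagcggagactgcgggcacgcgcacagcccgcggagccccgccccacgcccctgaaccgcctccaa
F2rl3: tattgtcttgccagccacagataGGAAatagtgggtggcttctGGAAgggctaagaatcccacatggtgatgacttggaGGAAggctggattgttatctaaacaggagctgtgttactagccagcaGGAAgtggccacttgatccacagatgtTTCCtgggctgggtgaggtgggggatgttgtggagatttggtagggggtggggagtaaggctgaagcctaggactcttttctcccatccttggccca
Procr: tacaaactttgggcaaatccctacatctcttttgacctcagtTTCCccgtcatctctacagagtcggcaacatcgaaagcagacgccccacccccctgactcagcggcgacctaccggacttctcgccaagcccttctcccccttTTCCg

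Counted on both strands, the F2rl3 window of 250 bases held GGAA at 5 places and the longer string AGGAAG, which contains it, at 2. The F2r window of 229 bases held GGAA at 1 place and the Procr window of 150 bases at 2, both without AGGAAG. None of these windows held CCGGAAGT. For comparison, GGAA lay in 93.4% of 32851 RefSeq promoter windows of 250 bases, AGGAAG in 29.5% and CCGGAAGT in 2.88%. As many as 5 matches to GGAA were found in 18.03% of windows as long as that of F2rl3. At least 1 was found in 91.8% of windows as long as that of F2r, and at least 2 in 50.8% of windows as long as that of Procr. Members that were not called held similar numbers in windows of 250 bases, here not cut at the first GENCODE exon. The windows of Tfpi held GGAA at 5 and at 4 places, the latter with AGGAAG at 2. F5 held GGAA at 4 places and AGGAAG at 1, F8 held GGAA at 4 without AGGAAG, and the untested F3 held GGAA at 1. The 3 promoters shown were chosen by outcome and link no count to a direction. These letters describe the sequence, and binding of Erg or Fli1 was not measured in these data.

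Of the 8 tested genes, F2r and Procr rose and Thbd and F2rl3 fell with the knockout label, past an adjusted p of 0.05. Every adjusted p here comes from the quasi-likelihood test of edgeR, adjusted by Benjamini and Hochberg's method across the whole set of tested genes, unless another tool is named. Over all tested genes 14.5% were called higher, 14.8% lower and 29.3% in either direction. An unadjusted p under 0.05 was found for 5 of the 8 (Tfpi in addition) and for 40.7% of all tested genes. The median log2 fold change was -0.11 over the 8 and 0.011 over all genes, while the median size of change regardless of direction was 0.99 against 0.30. For 3 of the 8 (Thbd, F2r and F2rl3) the ranges of the groups were separate, which held for 27% of all tested genes.

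**Figure D1:**
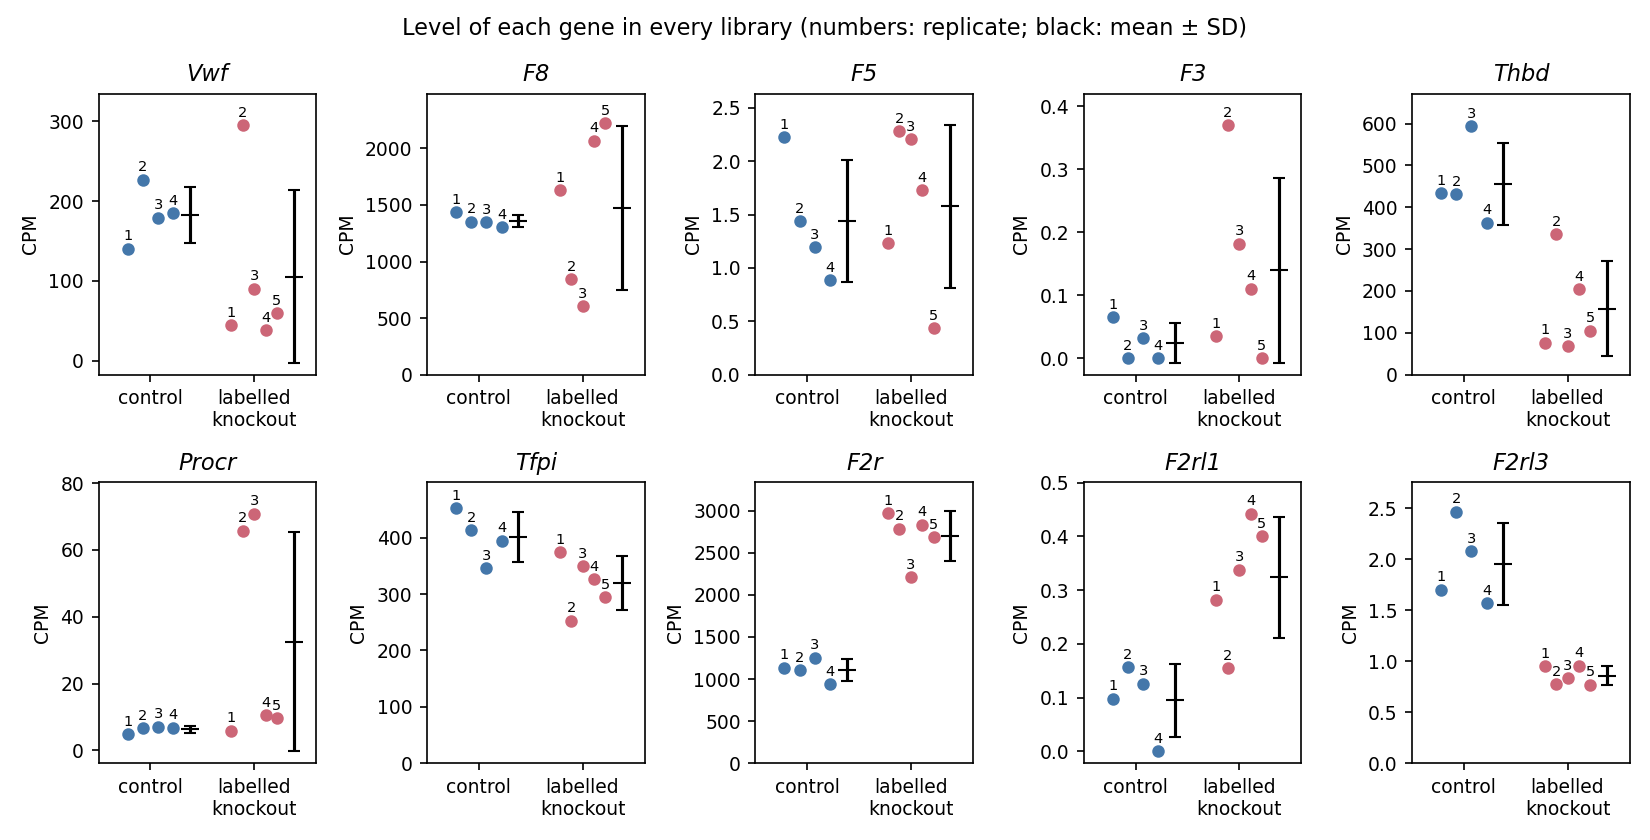
Level of each of the 10 genes in CPM (vertical axes, each with its own scale) in 4 control libraries (blue) and 5 libraries labelled knockout (red), with replicate numbers beside the points and the mean ± SD in black. All red points of F2r lie above, and those of Thbd and F2rl3 below, the blue points, while replicates 2 and 3 stand apart for F8 and Procr and replicate 2 for Vwf.

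Among the receptors, F2r, encoding the main thrombin receptor of endothelium, was the most abundant member per length in both groups. F2r (ENSMUSG00000048376, GRCm38 chromosome 13, 95601803 to 95618487, minus strand) had 1135, 1108, 1252 and 937.4 CPM in control replicates 1 to 4. The libraries labelled knockout had 2973, 2786, 2208, 2836 and 2689 CPM. The lowest of these was still well above the highest control. F2r rose 2.43-fold (log2 1.28 ± 0.14, SE, edgeR adjusted p = 1.77e-04), with each of the 5 libraries between 1.99 and 2.68 times the control mean. It was called higher in 19 of 19 alternative fits, at log2 fold changes of 1.21 to 1.36. Spread within the groups was small, with coefficients of variation of 11.7% and 10.8%.

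F2rl3, the gene of the low-affinity thrombin receptor PAR4, lay near the bottom of the measured range. F2rl3 (ENSMUSG00000050147, chromosome 8, 72761880 to 72763874, plus strand) had 52, 79, 66 and 53 counts in the controls and 27, 25, 32, 26 and 23 counts in the libraries labelled knockout. As levels these were 1.57 to 2.47 CPM and 0.768 to 0.957 CPM, without overlap. F2rl3 fell 2.28-fold (log2 -1.19 ± 0.22, SE, edgeR adjusted p = 0.00308). It was called lower in all 18 alternative fits that tested it, at adjusted p up to 0.0462, and replicates 2 and 3 did not stand apart for this gene. F2rl3 is also a platelet receptor gene. Of 11 platelet and megakaryocyte markers 8 were tested, and 5 of these were higher and 0 lower, where 14.5% of all tested genes were called higher. The summed level of the 11 was 27.6 to 40.4 CPM in controls and 68.9 to 141 CPM in the libraries labelled knockout. The platelet chemokine gene Pf4 rose from 2.76 ± 0.642 to 24.8 ± 3.18 CPM (log2 3.17 ± 0.18, SE, edgeR adjusted p = 8.96e-06). The marker gene Itga2b rose from 26.4 ± 6.37 to 79.5 ± 30.4 CPM, and Itga2b and Pf4 made up most of the summed level. The called genes Ppbp, Gp9 and Gp6 had means of only 3.25, 0.688 and 0.318 CPM in the libraries labelled knockout. Gp1ba (log2 0.09), Gp1bb and Gp5 were tested and not called. None of the 11 markers was at 0 in every library. With replicates 2 and 3 left out, 2 of 6 tested markers were higher. The part of platelet RNA in the results was not tested. In bulk RNA, fewer cells of a type and less RNA per cell cannot be told apart.

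F2rl1, the gene of PAR2, was nearly silent in both groups. F2rl1 (ENSMUSG00000021678, chromosome 13, 95511732 to 95525227, minus strand) had 3, 5, 4 and 0 counts in the controls and 8, 5, 13, 12 and 12 in the libraries labelled knockout. The 0 allows a level of up to 0.0886 CPM (3 counts in that library, counting error only). Mean levels were 0.0951 and 0.323 CPM, and the ranges met at 0.156 CPM in control replicate 2 and 0.154 CPM in replicate 2 of the libraries labelled knockout. An exact two-sided permutation test of CPM, chosen after the counts were seen and 1 of 2 such tests, gave p = 0.0238 for F2rl1, where the smallest p of 126 splits is 0.00794. In the edgeR fit without a count filter its adjusted p was 0.112, and in the 4 fits that left out a control it lay between 0.0674 and 0.122, so F2rl1 was not called in any of them.

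Per kilobase of exons, F2r held 99.6% to 99.7% of the summed level of the 3 receptors in controls and 99.9% in every library labelled knockout. The sum itself was 282 to 377 CPM per kilobase in controls and 662 to 892 in the libraries labelled knockout. F2rl3 fell from between 0.250% and 0.371% of that sum to between 0.0463% and 0.0629%, a share that combines its own fall with the rise of F2r. On chromosome 13 F2r and F2rl1 are neighbours on the same strand, at very different levels in these cells.

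**Figure D2:**
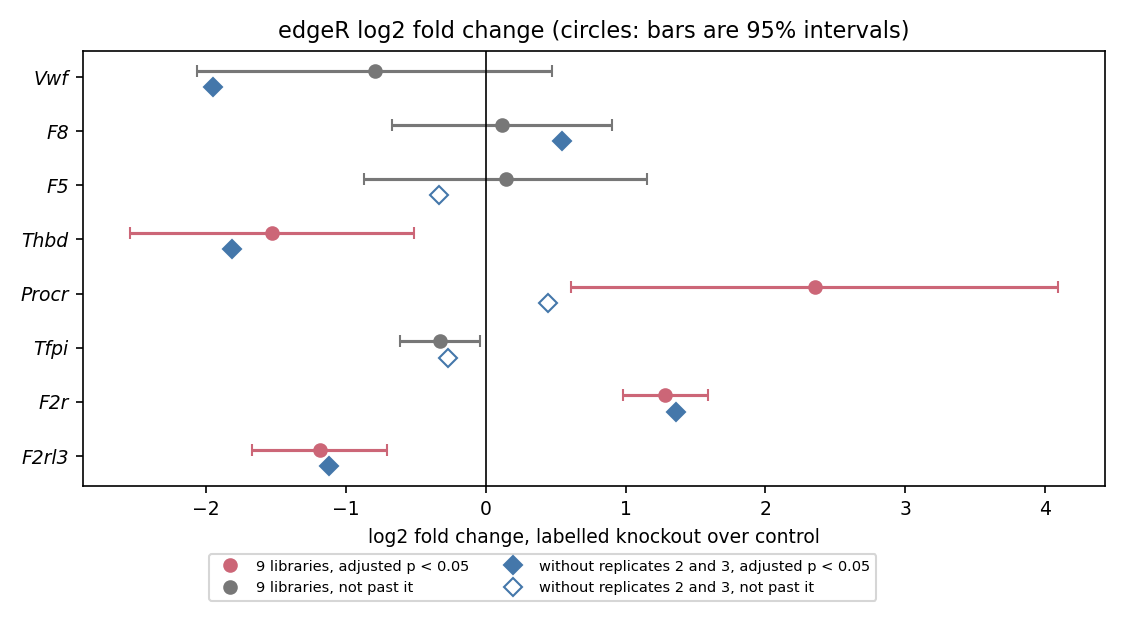
edgeR log2 fold change of the 8 tested genes, libraries labelled knockout over control, with all 9 libraries (circles, bars are 95% intervals, red where the adjusted p is under 0.05) and without replicates 2 and 3 (diamonds, filled where the adjusted p is under 0.05). F2r, F2rl3 and Thbd keep their call without those libraries, Procr moves from 2.35 to 0.45 and loses it, and Vwf and F8 gain one. The libraries left out were chosen from these same data.

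Of the anticoagulant genes, Thbd fell, Procr rose in the full comparison and Tfpi did not pass the test. Thbd (ENSMUSG00000074743, chromosome 2, 148404466 to 148408188, minus strand, a single exon) encodes thrombomodulin. Its control levels were 434.3, 431.3, 594.7 and 363.2 CPM. The libraries labelled knockout had 76.4, 335.8, 67.4, 205.1 and 105.5 CPM. Each was below the lowest control, and replicate 2 came closest to it. Thbd fell 2.88-fold (log2 -1.53 ± 0.45, SE, edgeR adjusted p = 0.0311). Replicates 1 and 3 had 5.97-fold and 6.77-fold less than the control mean, but replicate 2 only 1.36-fold less.

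The call for Thbd sat near the threshold. Over 19 alternative fits its log2 fold change ranged from -2.001 to -1.33 and its adjusted p from 0.00356 to 0.106, with 12 of 19 calling it. Calls were lost without control replicate 1, 2 or 3 (edgeR adjusted p = 0.0615, 0.0623 and 0.0831) and without knockout-labelled library 1 or 5 (0.0574 and 0.0637). Leaving out replicate 2 of that group gave -2.001 and an adjusted p of 0.00356. Leaving out both replicates 2 and 3 gave -1.81, at an adjusted p of 0.00593.

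Procr, the gene of the protein C receptor, split the libraries labelled knockout. Procr (ENSMUSG00000027611, chromosome 2, 155751117 to 155755471, plus strand) had 4.84, 6.68, 7.15 and 6.79 CPM in controls. Replicates 2 and 3 of the libraries labelled knockout had 65.8 and 70.8 CPM, against 5.89, 10.5 and 9.58 CPM in replicates 1, 4 and 5. Replicate 1 thus fell inside the control range, replicates 4 and 5 just above it, and replicates 2 and 3 at 10.3 and 11.1 times the control mean. The fit over all libraries gave a 5.11-fold rise (log2 2.35 ± 0.78, SE, edgeR adjusted p = 0.0464). Without replicates 2 and 3 the log2 fold change was 0.45 with an adjusted p of 0.167. The call was also lost without replicate 2 alone (edgeR adjusted p = 0.0909), without replicate 3 alone (0.0970) and without any 1 of the 4 controls (0.0931 to 0.115), and limma-voom gave an adjusted p of 0.207. Of 19 alternative fits 8 called it.

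Tfpi varied least among the anticoagulant genes. Tfpi (ENSMUSG00000027082, chromosome 2, 84432855 to 84476775, minus strand) had 451.8, 413.1, 346.0 and 394.7 CPM in controls and 374.0, 252.9, 349.3, 326.5 and 294.3 CPM in the libraries labelled knockout. The groups overlapped, although all 5 of the latter lay below the control mean. Its log2 fold change of -0.33 ± 0.13 (SE) did not pass the threshold (edgeR adjusted p = 0.0807), and its 95% interval ran from -0.62 to -0.04 before adjustment. In the alternative fits the adjusted p lay between 0.0530 and 0.198, and 0 of 19 called it (unadjusted p = 0.0279 with all libraries).

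Per kilobase, the 3 anticoagulant genes together had 173 to 227 CPM in controls and 86.9 to 169 CPM in the libraries labelled knockout. Thbd made up 56.3% to 70.5% of the sum in controls and 15.5% to 53.4% in the other group, where Tfpi reached up to 74.5% and Procr up to 29.8%. In replicate 3 of the libraries labelled knockout Procr exceeded Thbd, with a ratio of Thbd to Procr of 0.519, while the ratio was 29.2 to 48.9 in controls and 2.79 to 10.7 in the other 4. The level of F2r over that of Thbd, a receptor and a binding partner of the same protease, was 2.35 to 2.92 in controls and 9.26 to 43.4 in the libraries labelled knockout. The ranges of F2r and of Thbd were each separate between the groups, in opposite directions. These ratios therefore could not overlap, and they add no further result.

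**Figure D3:**
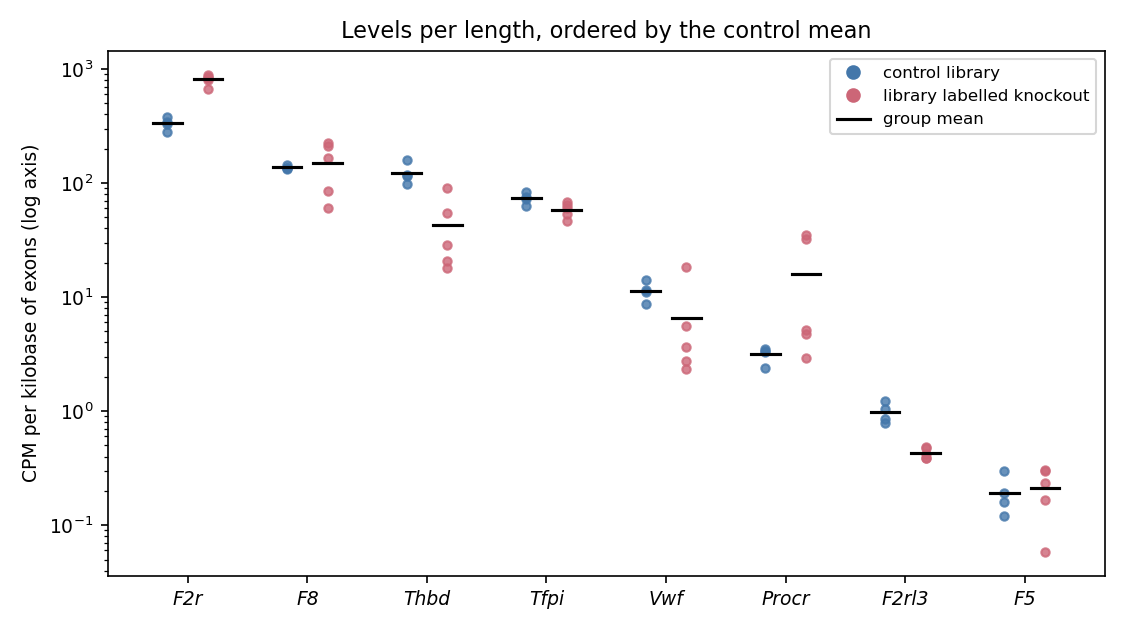
Levels in CPM per kilobase of exons (log axis) of the 8 tested genes, ordered by the control mean, with control libraries in blue, libraries labelled knockout in red and group means as black bars. F2r leads in both groups, and Thbd and Vwf spread over a wider range in the libraries labelled knockout than in controls.

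In controls the order of levels per kilobase was F2r (332 ± 39.0, SD, n = 4), F8 (137 ± 5.46), Thbd (122 ± 26.4), Tfpi (73.5 ± 8.04), Vwf (11.4 ± 2.21), Procr (3.14 ± 0.510), F2rl3 (0.979 ± 0.203), F5 (0.193 ± 0.0770), F2rl1 and F3. Only the neighbours F8 and Thbd, and F2rl1 and F3, had overlapping library ranges. In the libraries labelled knockout F2r (809 ± 87.7, SD, n = 5) again stood clear of the next gene, F8 (149 ± 72.9). From F8 down to Vwf every pair of neighbours overlapped, in the order F8, Tfpi (58.5 ± 8.67), Thbd (42.4 ± 30.5), Procr (16.0 ± 16.1) and Vwf (6.55 ± 6.73). Below them, F5 overlapped F2rl1 and F2rl1 overlapped F3. Lengths here merge every annotated exon of a gene (16064 bases for Vwf and 3723 for the single exon of Thbd). A gene whose annotated exons are not all in its expressed transcripts is thus placed too low. The order, and shares and ratios between genes, depend on that choice.

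For the procoagulant genes no call was made over all 9 libraries, yet F8 and Vwf varied widely within one group. F8 (ENSMUSG00000031196, chromosome X, 75172715 to 75382615, minus strand), the factor VIII gene, was held in a narrow band in controls, at 1434, 1353, 1347 and 1304 CPM. Replicates 2 and 3 of the libraries labelled knockout had 847.0 and 603.2 CPM, and replicates 1, 4 and 5 had 1631, 2069 and 2221 CPM. The first pair lay below every control and the other 3 above every control. The coefficient of variation was 3.98% in controls and 49.0% in the libraries labelled knockout. The mean difference was small (log2 0.12 ± 0.35, SE, edgeR adjusted p = 0.834), with a 95% interval from -0.67 to 0.91. When replicates 2 and 3 were left out, F8 was called higher at a log2 fold change of 0.55 (edgeR adjusted p = 0.00862). Those are the libraries that lay below every control, so this call follows from their removal and is no separate support for a rise. F8 is X-linked and the groups held 3 males and 1 female against 2 males and 3 females, as read from Xist and Ddx3y. With a sex term its log2 fold change was 0.02 (edgeR adjusted p = 0.979). Replicate 2, at 847.0 CPM, was male and replicate 3, at 603.2 CPM, female.

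Vwf, which endothelium stores in granules and which marks larger vessels more than liver sinusoids, was low in 4 of the 5 libraries labelled knockout. Vwf (ENSMUSG00000001930, chromosome 6, 125546774 to 125686679, plus strand) had 140.2, 226.8, 178.9 and 184.7 CPM in controls. The libraries labelled knockout had 44.0, 295.1, 90.3, 37.9 and 59.0 CPM. Replicate 2 lay above every control, and the other 4 lay below every control. Over all libraries Vwf was not called (log2 -0.79 ± 0.57, SE, edgeR adjusted p = 0.321), and its 95% interval ran from -2.06 to 0.48. Leaving out replicate 2 gave -1.65 (edgeR adjusted p = 0.00264) and leaving out replicates 2 and 3 gave -1.95 (2.43e-04). Replicate 2 alone lay above the controls, so these calls follow from its removal and are no separate support for a fall.

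Beside Vwf, 10 markers of arterial and venous endothelium were measured. Their summed level was 1773 to 2066 CPM in controls and 1508 to 2018 CPM in the libraries labelled knockout. Of the 10, 2 were lower and 0 higher, where 14.8% of all tested genes were called lower and 14.5% higher. Those 2 were the arterial gap junction gene Gja5 (8.15 ± 4.69 to 0.393 ± 0.332 CPM) and the venular chemokine receptor gene Ackr1 (19.1 ± 5.14 to 6.14 ± 3.13 CPM). This became 3 of 10 lower when replicates 2 and 3 were left out. Their part in the results was not tested.

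F5 and F3 were almost absent. F5 (ENSMUSG00000026579, chromosome 1, 164151838 to 164220277, plus strand) had 30 to 68 counts per control, or 0.886 to 2.23 CPM, and 13 to 85 counts per library labelled knockout, or 0.434 to 2.28 CPM. These ranges overlapped fully (log2 0.14 ± 0.45, SE, edgeR adjusted p = 0.843). A long noncoding gene on the other strand, Gm16548, shares 262 exon bases with F5, and the strand setting of the counting is not given in the sources used here. F3 (ENSMUSG00000028128, chromosome 3, 121723537 to 121735048, plus strand) had 2, 0, 1 and 0 counts in controls and 1, 12, 7, 3 and 0 in the libraries labelled knockout. Its 12 and 7 counts came from replicates 2 and 3. An exact two-sided permutation test of F3 levels gave p = 0.167, and the edgeR fit without a count filter gave an adjusted p of 0.207. Tissue factor transcript was thus not shown to differ at this depth.

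**Figure D4:**
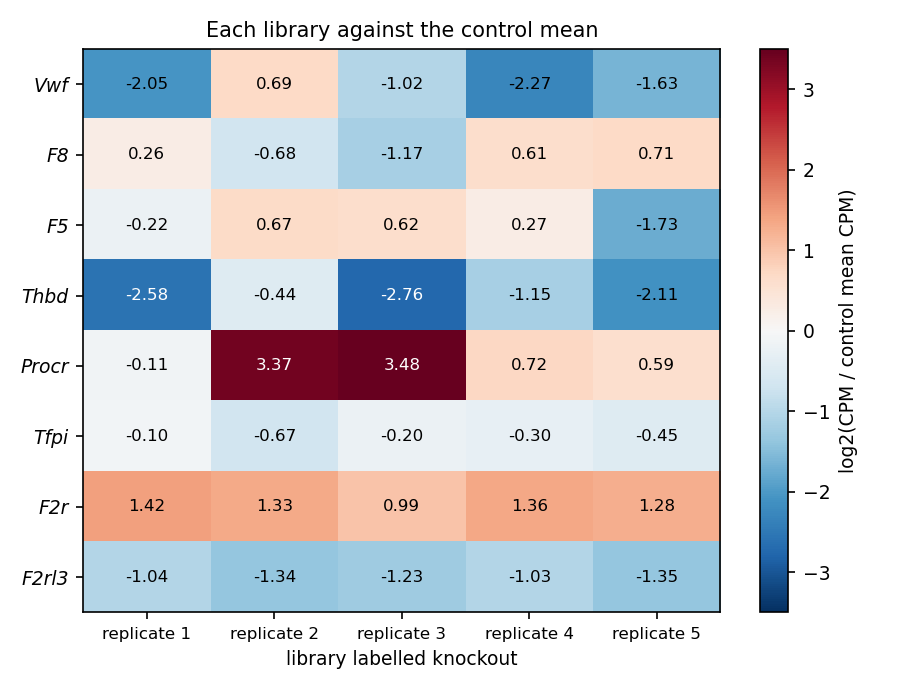
Each of the 5 libraries labelled knockout (columns) against the control mean for the 8 tested genes (rows), as log2 of the CPM ratio, blue for lower and red for higher. F2r (0.99 to 1.42) and F2rl3 (-1.35 to -1.03) are alike in all columns, F8 changes sign between replicates 2 and 3 and the other columns, and Procr reaches 3.37 and 3.48 in replicates 2 and 3.

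The members therefore fell into those that moved alike in all 5 libraries and those that did not. F2r and F2rl3 spanned less than 1.4-fold from their lowest to their highest library labelled knockout (1.35-fold and 1.25-fold). Tfpi spanned 1.48-fold, F8 3.68-fold, Thbd 4.98-fold, F5 5.26-fold at low counts, Vwf 7.80-fold and Procr 12.02-fold. In controls the same span was 1.10-fold for F8, 1.64-fold for Thbd, 1.62-fold for Vwf and 1.48-fold for Procr. For F2r, F2rl3, Tfpi and F5 the control span was 1.34-fold, 1.58-fold, 1.31-fold and 2.51-fold. The level of F8 per kilobase over that of Vwf, its carrier in plasma, was 9.67 to 16.6 in controls. It was 4.65 and 10.8 in replicates 2 and 3 of the libraries labelled knockout and 60.1, 88.7 and 61.0 in replicates 1, 4 and 5. In replicates 1, 4 and 5 F8 lay above and Vwf below every control, and in replicate 2 the reverse. Their ratios therefore had to lie outside the control range, and they add no further result. Hepatocyte, macrophage, stromal, lymphocyte, cholangiocyte and erythroid markers were also summed in each library. Macrophage markers reached 583 CPM in the libraries labelled knockout and 381 CPM in controls, with 0 of 7 called, and hepatocyte markers lay at 160 to 379 CPM in controls and 20.2 to 212 CPM in the other group, with 1 of 9 lower. Of the remaining 4 lists 0 markers were called, and their summed levels stayed at or below 46.7 CPM in each library. The part of these cells in the results was not tested.

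Genes whose levels ran most nearly with the extremes of the set were found by Pearson's r of log2(CPM + 0.5) over the 9 libraries, among 8677 genes with a mean of at least 10 CPM. For Procr they were Gpi1 (r = 0.98), Spred3 (0.98), Nabp1 (0.97), Cmip (0.97) and Rnf125 (0.97). For Thbd they were the cathepsin gene Ctsl (0.98), Eva1c (0.98), Gstm1 (0.98), Fuca2 (0.97) and the nitric oxide synthase gene Nos3 (0.97). The 9 points share the group difference and the stand of replicates 2 and 3, so these values describe the libraries only.

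Other genes of the pathway were read from lists, whose counts stand beside 14.5% of all tested genes called higher and 14.8% called lower. Of 22 genes for Weibel-Palade bodies, the granules that store von Willebrand factor, 21 were tested, and 8 were lower and 4 higher, with a median log2 fold change of -0.33. The small GTPase gene Rab3b, which serves granule release, fell 15.9-fold from 68.9 ± 19.6 to 4.35 ± 2.22 CPM (log2 -3.99 ± 0.38, SE, edgeR adjusted p = 1.08e-04). Rab27a, a GTPase on the same granules, fell from 77.6 ± 14.4 to 17.4 ± 10.5 CPM. Selp, the leukocyte receptor stored with von Willebrand factor, fell from 46.0 ± 6.37 to 18.5 ± 5.93 CPM. Rab27a and Selp were named after their values were seen. The 4 that rose were Edn1 (endothelin, 16.0 ± 2.88 to 44.1 ± 14.2 CPM), the granule membrane gene Cd63 (4.21 ± 1.83 to 28.2 ± 25.8 CPM), Vamp8 (34.8 ± 1.74 to 49.3 ± 3.38 CPM) and Anxa2 (262 ± 18.9 to 433 ± 108 CPM). The rise of Cd63 was 2.74 on the log2 scale with all libraries and 1.34 without replicates 2 and 3, and its call was lost under limma-voom, with no count filter and without control replicate 2. Vwf itself, the cargo, was not called.

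**Figure D5:**
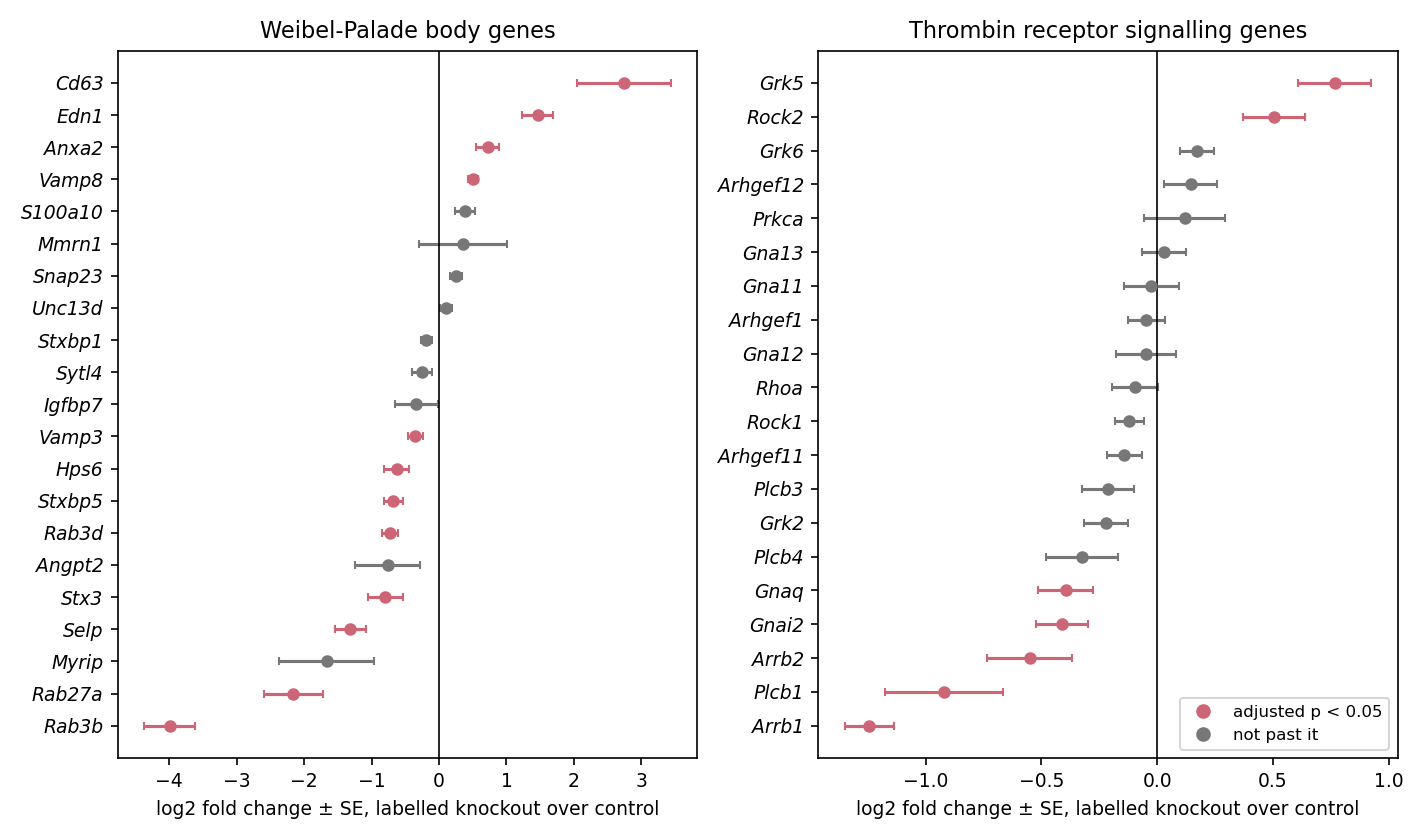
edgeR log2 fold change ± SE of the 21 tested Weibel-Palade body genes (left) and the 20 genes of thrombin receptor signalling (right), libraries labelled knockout over control, red where the adjusted p is under 0.05. Rab3b (-3.99) and Cd63 (2.74) are the extremes on the left, and Arrb1 (-1.24) and Grk5 (0.77) on the right.

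Of 20 genes that act downstream of thrombin receptors, all tested, 5 were lower and 2 higher, with 13 not called and a median log2 fold change of -0.11. Arrb1, an arrestin that ends receptor signalling, fell 2.37-fold from 716 ± 35.8 to 303 CPM (log2 -1.24 ± 0.11, SE, edgeR adjusted p = 5.70e-05). Grk5, a receptor kinase, rose from 14.8 ± 3.75 to 25.2 CPM, and the kinase gene Rock2 from 109.5 ± 13.2 to 155.5 CPM. The Rock2 call was lost without control replicate 1 or 2. The G protein genes Gna11, Gna12 and Gna13 were not called, at log2 fold changes of -0.02, -0.05 and 0.03. In the fit without replicates 2 and 3, 2 genes of this list were lower and 3 higher.

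Of 13 genes for folding, sulfation, carboxylation and cleavage of clotting factors, 3 were higher and 0 lower (5 and 0 without replicates 2 and 3), with a median log2 fold change of -0.04. Furin, the protease that removes the von Willebrand propeptide, rose from 161 ± 15.05 to 313 CPM (log2 0.96 ± 0.08, SE, edgeR adjusted p = 6.76e-05). The tyrosine sulfotransferase genes Tpst1 and Tpst2 rose from 6.18 ± 0.700 to 18.04 CPM and from 242 ± 8.03 to 299.4 CPM. The call for Tpst2 was lost with no count filter and when any 1 of the 4 controls or knockout-labelled library 1, 4 or 5 was left out. Lman1 and Mcfd2, the pair that carries factors V and VIII out of the endoplasmic reticulum, were not called, at log2 fold changes of 0.15 and -0.32.

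Of 5 tested genes for cleavage and clearance of von Willebrand factor and factor VIII (8 listed), 2 were lower and 0 higher, with a median log2 fold change of -1.25. The scavenger receptor gene Stab1 was among them, at 6236 ± 302 CPM in controls and 2422 CPM in the libraries labelled knockout (log2 -1.36 ± 0.12, SE, edgeR adjusted p = 7.16e-05). Stab2, Lrp1 and Asgr1 were not called, at log2 fold changes of -0.28, 0.80 and -1.25. The median of this list is thus the value of Asgr1, which had only 0.925 CPM in controls. Of 11 tested genes of other anticoagulants (13 listed), 2 were lower and 0 higher, with a median of -0.37. Anxa5, which covers exposed phosphatidylserine, fell from 446 ± 29.7 to 244 CPM (log2 -0.87 ± 0.10, SE, edgeR adjusted p = 2.12e-04). The heparin cofactor gene Serpind1 fell from 0.815 ± 0.589 to 0.159 CPM, a call lost with a sex term and when control 1 or 2, knockout-labelled library 1, 2 or 3, or both 2 and 3 were left out. Pros1, protein S, the cofactor of activated protein C, was not called, at 588 ± 47.0 and 594 CPM (log2 0.02 ± 0.14, SE). Of 7 genes of phosphatidylserine exposure, 3 were lower and 1 higher, with a median of -0.31, and the phospholipid scramblase family genes Plscr3 and Plscr1 went opposite ways (log2 -0.73 and 0.51).

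Of 12 tested genes of other clotting proteins (16 listed), mostly made by hepatocytes, 2 were lower and 1 higher, with a median log2 fold change of -1.22. The prothrombin gene F2 fell from 7.07 ± 1.68 to 2.38 CPM, and F12 from 0.953 ± 0.588 to 0.298 CPM. The F12 call was lost with a sex term, without control replicate 1 or 2 and when knockout-labelled libraries 2 and 3 were both left out (edgeR adjusted p = 0.0821). The transglutaminase gene F13a1 rose from 0.270 ± 0.182 to 0.956 CPM, a call lost without control replicate 3 and without those 2 libraries (0.0567). Without replicates 2 and 3, 1 gene of this list was lower and 0 higher. Summed levels of the list were 28.4 to 82.1 CPM in controls and 6.75 to 48.1 CPM in the libraries labelled knockout, beside the lower hepatocyte marker sums given above. The part of hepatocyte RNA in these values was not tested.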

How the data were processed

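Endothelial RNA of 4 control libraries and 5 libraries labelled knockout was analysed from 1 table of raw counts per Ensembl gene that the authors deposited. STAR 2.7.6a, FastQC 0.11.5 and the GRCm38 build are named in the submitters' processing notes. Not given in the sources used here are the counting program, its annotation release and its strand setting. Per the labels' protocols, unstranded or stranded kits were used, without saying which for which library. Groups and replicate numbers came from the sample titles, and 0 columns were left unused. Symbols, positions and exon lengths came from GENCODE M21 (GRCm38), which matched 52489 of 52636 rows, and promoters from RefSeq (GRCm38.p6), which held 7 of the 10 members.

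Genes were filtered with filterByExpr (minimum count 10, minimum total 15), scaled by TMM, and fitted by edgeR 4.0.16 (R 4.3.3) with robust glmQLFit and glmQLFTest, no covariate and a threshold of 0.05. A standard error is the log2 fold change over the square root of F. Alternatives were DESeq2 1.42.0, limma-voom (limma 3.58.1), 3 scalings, 2 filters, a replicate block, a sex term and leaving out libraries. On simulated counts of this comparison (14368 genes) the test called 79 of 100 genes changed 2-fold, 96 of 100 changed 4-fold and 10 of 14168 unchanged ones. Changed genes were drawn only from those above a minimum expected count, and no split like that of replicates 2 and 3 was simulated. These rates may therefore not hold for F5, F2rl3 or genes with that split. Pairs of libraries of one group differed by more than counting noise allows (chi-square over its degrees of freedom at least 20.3), so none was counted as a copy. Reads are not independent molecules, and floors of 3 counts cover counting error only.

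The members, lists, tests and the rule for named genes were chosen with earlier results of these data known. That rule took all members, Erg and Fli1, up to 3 called genes of each list with the smallest p and those called against most of their list. It also took the 5 genes most correlated with the called member that rose most and with the one that fell most. Other genes were named after their values were seen. Some called genes of the lists are counted but not reported here by name.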

Additional observations from a re-analysis of the deposited data

Results flagged for a closer look

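The level of Vwf in replicate 2 of the libraries labelled knockout, 295.1 CPM, lay far from the others of its group, of which the next highest was 90.3 CPM. Its gap to that library was 0.796 of the whole range, above Dixon's 95% critical value of 0.710 for 5 samples. It was the 1 such value among 20 groups examined (10 genes in 2 groups), where about 1 in 20 is flagged by chance. The same library had the highest Thbd level of its group (335.8 CPM) and the highest macrophage marker sum (583 CPM). Its sums of stromal (26.7 CPM), lymphocyte (13.5 CPM), cholangiocyte (16.2 CPM) and erythroid (46.7 CPM) markers were also the highest of the group. Its endothelial marker sum (11759 CPM) was the lowest. The part of these cells in the results was not tested.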

How the results depend on the processing

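F2r kept its call in all 19 alternative fits and F2rl3 in all 18 that tested it, while Tfpi was called in 0 of 19 and F5 in 0 of 18. Over all genes, 2110 were called higher and 2161 lower, and each replicate left out in turn gave 1495 to 1981 and 1591 to 2040. Among the members, 2 were higher and 2 lower, and leave-one-out fits gave 1 to 2 higher and 1 to 3 lower. Members called higher numbered 1 under limma-voom, with no count filter, with the replicate block and with a sex term. Members called lower numbered 1 with no count filter, with the replicate block and with the filter of 5 CPM in 4 samples, which removed F2rl3 and F5 from the test. Leaving out knockout-labelled libraries 2 and 3, a choice made from these same data, 2 members were higher (F2r and F8) and 3 lower (Vwf, Thbd and F2rl3). Directions reversed, among results not called, for F8 under limma-voom (-0.029), with the replicate block (-0.25), without replicate 4 (-0.035) and without replicate 5 (-0.075) of the libraries labelled knockout. They reversed for F5 without control replicate 4 (-0.036), without replicate 2 (-0.022), replicate 3 (-0.011) or both (-0.34) of that group. Leave-one-out fits of F5 ranged from -0.036 to 0.43, and those of F8 from -0.075 to 0.32. The cause was not tested beyond the libraries left out. Scaling by library totals moved the share of called genes that were higher from 49.4% to 59.2% (2623 higher and 1808 lower) and the median log2 fold change from 0.011 to 0.076, and left the 4 member calls in place.

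The replicate block gave 1296 genes higher and 1375 lower, with 1 member each way, and ended the calls of Thbd (edgeR adjusted p = 0.0776) and Procr (0.103), as did the fit with no count filter (0.106 and 0.153). The block also ended the calls of Fli1 (0.0639), Plscr1 (0.0502), Cd63, F12, Rock2, Serpind1 and Tpst2. Samples with the same number shared only that number. Correlations of their deviations from the group means were 0.32, -0.05, -0.01 and -0.35 for replicates 1 to 4, and 1 of 4 controls correlated best with its own number. Depth limits F3 and F2rl1, where 3 counts are worth up to 0.1105 CPM.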
